A study of Homo sapiens with 6 samples.

Results

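The genes described here are 260 expressed antisense RNAs and the genes they are named after, measured in PA1 cells with and without SOX2 knockdown. A gene was taken when its symbol ended in -AS and a digit and its mean level over all 6 libraries was at least 1 CPM, the count divided by the library's total count and multiplied by 1000000. SOX21-AS1 was left out of this choice. Of 59653 genes in the table, 1434 carried such a symbol, and 260 reached the level. The genes were thus selected on the level of each antisense RNA over all libraries, and not on the difference between the groups. USP3-AS1 at 1.01 CPM and SEMA6A-AS2 at 1.03 CPM lay just inside the level, and SRP54-AS1 at 0.994 CPM and UBE2D3-AS1 at 0.988 CPM just outside. Each antisense RNA was paired with the gene whose symbol stands before -AS, called its partner below.

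PA1 is a human ovarian teratocarcinoma line with pluripotent features. Cells were transfected while adherent with a negative control siRNA or with siRNA to SOX2, moved after 24 h to poly-HEMA plates that prevent attachment, and grown there in 3D for another 72 h. Each group held 3 libraries of polyadenylated RNA from cells labelled wildtype. The series text names 2 siRNAs to SOX2 and does not say whether they were pooled, and the labels do not say whether the replicates were separate cultures, so p-values measure only the spread between these libraries.

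An antisense RNA is made from the DNA strand opposite to that of another gene. Many start close to the start of their partner and run away from it, others cover its exons, and others lie inside 1 of its introns. Some are known to raise or lower their partner through transcription or RNA pairing, some act elsewhere in the cell, and for many no role is known. SOX2 is a transcription factor of the HMG-box family that holds pluripotent and neural progenitor cells in their state.

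The pairs whose RNAs start from a common stretch of DNA show most directly how close the genes lie. In the RefSeq start sites (GRCh38.p14), 178 of the 260 antisense RNAs and 206 partners could be matched, and in 48 pairs the partner started within 250 bases upstream of the antisense RNA on the other strand. In 6 of these 48 both genes changed, by the test given below. Their sequences, printed here as the bases between both starts on the antisense RNA's strand, 5′ to 3′, with CCAAT or its reverse complement ATTGG in capitals, are those shared by FOXD3-AS1 and FOXD3 (chr1:63322459-63322566, minus strand), ID2-AS1 and ID2 (chr2:8681864-8682055, minus), LIFR-AS1 and LIFR (chr5:38556647-38556785, plus), RBM26-AS1 and RBM26 (chr13:79406256-79406308, plus), TPT1-AS1 and TPT1 (chr13:45341184-45341344, plus), and ZNF528-AS1 and ZNF528 (chr19:52397758-52397848, minus).
FOXD3-AS1: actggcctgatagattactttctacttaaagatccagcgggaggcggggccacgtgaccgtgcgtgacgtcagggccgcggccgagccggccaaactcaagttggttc
ID2-AS1: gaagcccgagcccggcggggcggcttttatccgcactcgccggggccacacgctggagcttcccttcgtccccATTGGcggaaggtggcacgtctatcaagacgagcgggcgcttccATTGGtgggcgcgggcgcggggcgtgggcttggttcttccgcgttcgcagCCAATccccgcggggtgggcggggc
LIFR-AS1: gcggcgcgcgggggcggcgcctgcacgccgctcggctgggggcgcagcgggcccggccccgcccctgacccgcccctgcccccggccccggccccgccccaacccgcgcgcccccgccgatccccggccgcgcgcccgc
RBM26-AS1: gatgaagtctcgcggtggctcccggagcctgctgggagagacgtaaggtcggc
TPT1-AS1: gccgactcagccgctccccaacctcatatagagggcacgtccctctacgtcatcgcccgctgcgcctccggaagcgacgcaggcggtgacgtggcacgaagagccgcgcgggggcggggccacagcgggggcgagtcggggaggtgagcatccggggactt
ZNF528-AS1: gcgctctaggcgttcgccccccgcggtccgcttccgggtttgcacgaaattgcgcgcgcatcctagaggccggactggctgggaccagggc
The 6 stretches ran from 53 bases for RBM26-AS1 to 192 bases for ID2-AS1. Their GC content was lowest between FOXD3-AS1 and FOXD3, at 60.2%, and highest between LIFR-AS1 and LIFR, at 91.4%. Over all 48 shared start regions the median length was 109 bases and the median GC content 70.3%, against a median of 58.7% over the 35116 promoter windows of the same RefSeq table, which run from 250 bases before a start to 50 after it. These GC medians come from stretches of unlike length and position. CCAAT, the box bound by the factor NF-Y, was found on either strand in 9 of the 48 regions. In stretches of the same lengths before all starts of the table its share was 17.45%. Only the ID2-AS1 region of the 6 printed held it, with the 3 matches shown. AACAATG and ACAAAG, 2 forms of the letters SOX proteins bind, and ATGCAAAT, the octamer bound by POU factors, were in none of the 48 regions on either strand. Their shares in stretches of the same lengths before all starts were 1.29%, 6.13% and 0.741%. In the full windows AACAATG was found in 1.84% of the 217 windows of the antisense RNAs, in 2.37% of the 337 of their partners and in 3.33% of all. For ACAAAG these shares were 10.1%, 12.5% and 16.1%. No match says only that these letters were not in the window.

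SOX2 itself was measured at 247, 264 and 255 CPM in the control libraries and at 52.2, 54.7 and 50.2 CPM after SOX2 siRNA. This left 20.5% of the control level, a log2 fold change of -2.28 (SE 0.0437) with an adjusted p of 5.97e-16 in edgeR's quasi-likelihood test. The libraries held 25152313 to 32753184 counts, so that 3 counts corresponded to 0.0916 to 0.119 CPM. All fold changes below are SOX2 siRNA against control on the log2 scale, a gene was called changed at a Benjamini-Hochberg adjusted p under 0.05 over all 17592 genes tested, and rose, fell, higher and lower are used of called genes. Of the markers for pluripotent cells 9 of 10 were at 1 CPM or more, with a summed level of 2779 to 2869 CPM in control and 2777 to 2814 CPM after SOX2 siRNA, while TDGF1 was under 0.1 CPM in both groups. L1TD1 and DPPA4 were low as well, at 1.79 and 3.05 CPM in control. PODXL held 1316 CPM of the sum in control and 670 CPM after SOX2 siRNA, and LIN28A 706 and 1146 CPM. Within this sum 4 markers rose (LIN28A, LIN28B, DNMT3B and POU5F1, by 0.70, 0.59, 0.40 and 0.17) and 2 fell (USP44 by 1.43 and PODXL by 0.97). The 4 endothelial markers summed to 112 to 116 CPM in control and 82.6 to 86.3 CPM after SOX2 siRNA, those of fibroblasts and stroma (3 of 4 at 1 CPM or more, DCN near 0) to 287 to 331 and 381 to 438 CPM, and those of epithelium (3 of 4, KRT5 near 0) to 342 to 389 and 472 to 505 CPM. Of 5 leukocyte markers 1, LYZ, reached 1 CPM, with the list summing to 2.72 to 15.3 CPM in control and 2.34 to 19.0 CPM after SOX2 siRNA, and of 4 erythroid markers none did and 2 were at 0. The part these markers' shifts have in the results was not tested.

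The libraries of the SOX2 siRNA group differed among themselves in their antisense RNAs, a pattern noticed after the data were seen. Among the 51 antisense RNAs with a mean of at least 10 CPM, 35 were highest in SOX2 siRNA replicate 1, intermediate in replicate 2 and lowest in replicate 3. That is 68.6% of them, against 24.3% of the 10175 genes at this level and 30.5% of the 187 partners. Among other non-coding genes at this level it held for 14 of 36 with a LINC symbol (38.9%) and 3 of 7 ending in -DT. The median of these 51 stood at 105% of its group mean in replicate 1 and at 94.1% in replicate 3, where the median of all genes at this level stood at 99.95% and 99.96%. In the control group the same order held for 8 of the 51. Over all 260 the order was found for 107, or 41.2%, against 25.6% of all genes of at least 1 CPM. At that level it was as frequent in other non-coding genes, at 39.3% of 135 LINC, 40.0% of 50 -DT and 4 of 7 -IT genes. Their medians shifted alike, from 107% of the group mean in replicate 1 to 95.5% in replicate 3 for LINC and from 105% to 92.9% for -DT genes. The order was thus not particular to the antisense RNAs. The counts of antisense RNAs, partners, pairs and ratios without either library stand beside those results, and the part of this spread in other values was not tested.

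Most antisense RNAs were scarce. Their mean level ran from 1.01 to 193 CPM with a median of 3.39 CPM, 79 lay under 2 CPM, and 51 reached 10 CPM. The most abundant was OIP5-AS1, also known as cyrano, a conserved long non-coding RNA that binds microRNA-7. OIP5-AS1 gave 195, 203 and 199 CPM in control and 188, 191 and 185 CPM after SOX2 siRNA, and the groups did not overlap, yet its fold change of -0.08 (SE 0.0355) was not called (edgeR adjusted p = 0.124). With upper-quartile scaling of the libraries it passed, at -0.10 with an adjusted p of 0.0407. FGD5-AS1, the second in level, was measured at 154, 155 and 163 CPM in control and 191, 201 and 203 CPM after SOX2 siRNA. It lay higher in every SOX2 siRNA library than in any control library, and rose by 0.34 (SE 0.0402, adjusted p = 5.55e-06). Its partner FGD5 was under 0.2 CPM in all 6 libraries. GABPB1-AS1 stood at 166, 183 and 175 CPM in control and at 178, 154 and 133 CPM after SOX2 siRNA. Its first SOX2 siRNA library lay within the control range, and it was not called (adjusted p = 0.363), though without that library it passed, at -0.28 with an adjusted p of 0.0233.

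The next in level were PSMA3-AS1 at 68.1 CPM, CCDC144NL-AS1 at 66.4 CPM and TMEM161B-AS1 at 44.9 CPM over all libraries. PSMA3-AS1, named after a proteasome subunit, changed by -0.06 (edgeR adjusted p = 0.408) and CCDC144NL-AS1 by 0.07 (adjusted p = 0.368), so neither was called. TMEM161B-AS1 was at 51.1, 53.8 and 47.6 CPM in control and 45.0, 39.2 and 32.9 CPM after SOX2 siRNA, without overlap. It fell by 0.38 on the log2 scale with an adjusted p of 0.0484, a call that was kept in 2 of the 6 fits without 1 library. Without control replicate 1 its adjusted p was 0.14, without control replicate 2 0.149, without control replicate 3 0.0772 and without SOX2 siRNA replicate 2 0.14. Per length, most antisense RNAs were below their partner. In 256 pairs both genes had an exon length in GENCODE 29, the gene annotation used for positions. On the scale of CPM per kilobase of exon the antisense RNA exceeded its partner in 67 of them, and the median antisense RNA had 21.5% of its partner's level in control.

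After SOX2 knockdown 56 of the 260 antisense RNAs changed, 20 higher and 36 lower. That is 21.5%, where 28.2% of all genes tested were called, 14.8% higher and 13.4% lower. Of the 14692 genes tested at a mean of 1 CPM or more, 31.8% were called. The share grew with the level in both sets: between 1 and 2 CPM 6 of 79 antisense RNAs were called (7.59%, all genes 14.7%), between 2 and 5 CPM 14 of 87 (16.1%, all genes 21.3%), between 5 and 10 CPM 15 of 43 (34.9%, all genes 31.7%), between 10 and 30 CPM 15 of 37 (40.5%, all genes 33.6%), and from 30 CPM 6 of 14 (42.9%, all genes 37.1%). The median fold change of the 260 was -0.054, against -0.00085 over all genes tested, with 148 negative and 112 positive values. It was -0.080 without SOX2 siRNA replicate 1 and -0.030 without SOX2 siRNA replicate 3, the pair of libraries described above. Most called changes were small, with 36 of the 56 under 1.5-fold, 4 at least 2-fold lower and 1 at least 2-fold higher. The libraries of both groups did not overlap in CPM for 99 of the 260, or 38.1%, a share that was 42.1% over all genes tested. They did not overlap for 54 of the 56 called, and overlapped for VIM-AS1 and C1RL-AS1. The calls rest on the same counts, so this is no separate support for them. All 260 passed the filter on low counts, and 9 were under 1 CPM in 1 of the groups, of which EPHA1-AS1 and FOXD3-AS1 were called.

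The count of 56 depended on single libraries. It was 34 (13 higher, 21 lower) without control replicate 3 and 39 without control replicate 2, where 22 were lower. It was 57 (15 higher, 42 lower) without SOX2 siRNA replicate 1 and 47 (23 higher, 24 lower) without SOX2 siRNA replicate 3, so the excess of lower over higher calls was 1 gene without that library. Of the 56, 22 were called in all 6 fits that left out 1 library, and none changed sign in any. DESeq2's Wald test called 35, of which 33 were among the 56.

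The largest decrease was that of JAKMIP2-AS1 (chr5:147559994-147662009, plus strand, GRCh38). It was measured at 11.08, 11.25 and 10.04 CPM in the control libraries and at 1.84, 1.72 and 1.96 CPM after SOX2 siRNA. The lowest control value was more than 5 times the highest SOX2 siRNA value, and within each group the libraries lay close together. The mean fell from 10.8 ± 0.658 to 1.84 ± 0.116 CPM (SD, n = 3 each), a log2 fold change of -2.55 (SE 0.113, edgeR adjusted p = 1.69e-11). SOX2 itself changed by -2.28 in the same fit. EPHA1-AS1 (chr7:143407813-143523449, plus strand) is named after an ephrin receptor tyrosine kinase. It went from 3.18, 3.06 and 3.38 CPM to 0.701, 1.02 and 1.19 CPM, again without overlap, and fell by 1.71 (SE 0.202, adjusted p = 4.60e-06). Its partner EPHA1 had -0.56 and was not called (edgeR adjusted p = 0.0568). EPHA1 passed with at least 10 counts in every library (0.0436), with a replicate block (0.0327) and without SOX2 siRNA replicate 2 (0.0197). The ratio of this pair was not called by limma, but passed as the difference of the edgeR fold changes (-1.16, adjusted p = 0.00118). That difference was set against a normal distribution, with both genes taken as independent, and called 42 pairs where limma called 16. SOCS2-AS1 (chr12:93542463-93571768, minus strand) gave 7.69, 6.96 and 5.86 CPM in control and 2.07, 2.68 and 2.12 CPM after SOX2 siRNA. All SOX2 siRNA values were below all control values, and the fold change was -1.57 (SE 0.143, adjusted p = 2.10e-07). DLX6-AS1 (chr7:96955141-97014065, minus strand), a long RNA from the locus of the homeobox genes DLX5 and DLX6, was at 12.5, 10.8 and 11.8 CPM in control and at 5.61, 6.31 and 5.27 CPM after SOX2 siRNA. It fell by 1.02 (SE 0.0950, adjusted p = 2.63e-07), which completes the 4 that were at least 2-fold lower.

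Next by size came ADAMTS9-AS2 (-0.90), SERTAD4-AS1 (-0.86), HOXA-AS2 (-0.75), DLGAP1-AS1 (-0.68), ID2-AS1 (-0.65) and KANSL1L-AS1 (-0.61), with edgeR adjusted p from 0.000823 for ID2-AS1 to 0.0137 for KANSL1L-AS1. Their groups did not overlap, and all were under 7 CPM in every library. HOXA-AS2 (chr7:27107777-27134302, plus strand) lies in the HOXA homeobox cluster and has no single partner, since its name refers to the cluster. Its CPM were 3.24, 3.10 and 2.35 in control and 2.10, 1.69 and 1.36 after SOX2 siRNA. ADAMTS9-AS2 lost its call without control replicate 2 (adjusted p = 0.0610) and without SOX2 siRNA replicate 2 (0.0522). KANSL1L-AS1 lost it without control replicate 2 (adjusted p = 0.0557), without SOX2 siRNA replicate 2 (0.0745) and in DESeq2 (0.0657).

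**Figure D1:**
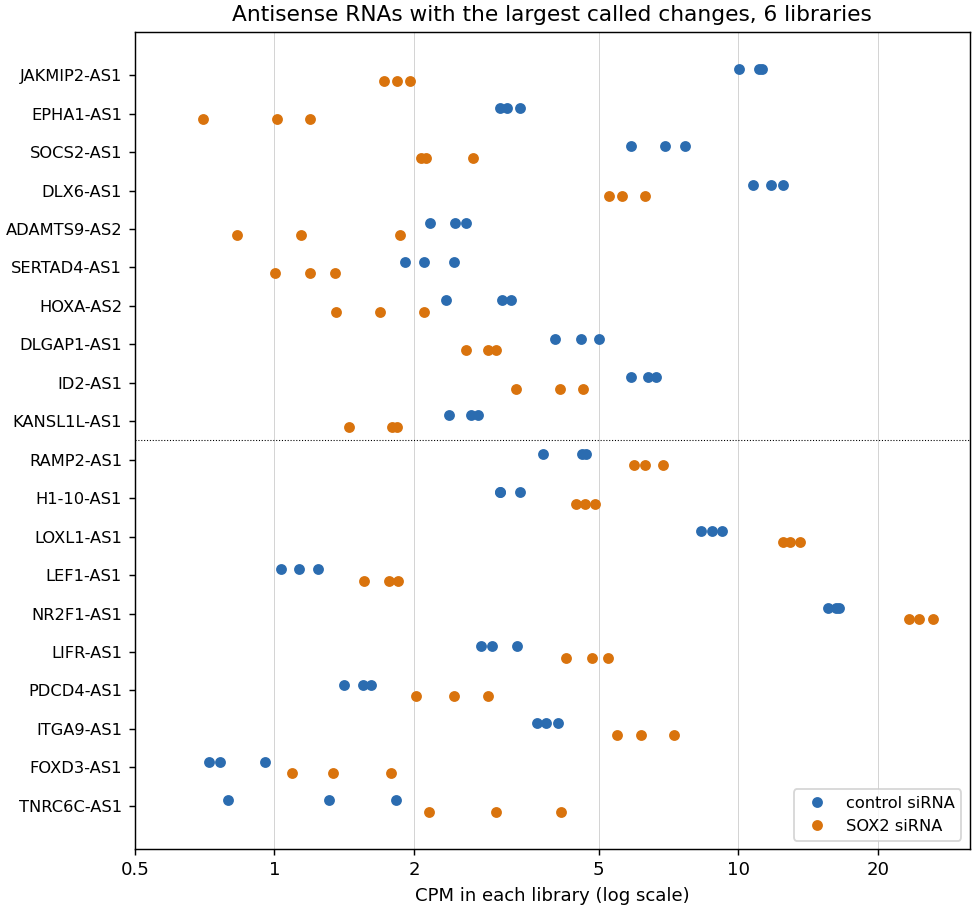
CPM in each of the 6 libraries (horizontal log axis) for the 10 called antisense RNAs with the lowest fold change (above the dotted line) and the 10 with the highest (below it), 1 row each; blue points are control siRNA libraries and orange points SOX2 siRNA libraries. In all 20 rows the colours are apart, and JAKMIP2-AS1 shows the widest gap, with control near 10.8 and SOX2 siRNA near 1.84 CPM.

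Among the 20 antisense RNAs that rose, TNRC6C-AS1 (chr17:78107398-78111799, minus strand) had the largest fold change. It was at 1.83, 0.795 and 1.31 CPM in control and 3.00, 2.15 and 4.14 CPM after SOX2 siRNA. The groups did not overlap but each spread widely, and the fold change of 1.22 (SE 0.319, edgeR adjusted p = 0.0202) lost its call without control replicate 3 (adjusted p = 0.0972) and without SOX2 siRNA replicate 1 (0.0661). FOXD3-AS1 gave 0.763, 0.954 and 0.724 CPM in control and 1.33, 1.79 and 1.09 CPM after SOX2 siRNA. At this low level it rose by 0.80 (SE 0.250, adjusted p = 0.0233), and the call was lost in DESeq2 (0.108), without control replicate 1 (0.0807), without control replicate 3 (0.0905) and without SOX2 siRNA replicate 2 (0.167). NR2F1-AS1 was the most abundant of the 10 with the highest fold change. Its CPM were 15.6, 16.5 and 16.2 in control and 26.3, 24.5 and 23.4 after SOX2 siRNA. Every SOX2 siRNA library was above every control library, for a rise of 0.62 (SE 0.0625, adjusted p = 6.53e-07). The other 7 were ITGA9-AS1 (0.70), PDCD4-AS1 (0.69), LIFR-AS1 (0.66), LEF1-AS1 (0.60), LOXL1-AS1 (0.57), H1-10-AS1 (0.56) and RAMP2-AS1 (0.55), all without overlap between the groups. PDCD4-AS1 lost its call without SOX2 siRNA replicate 2 (adjusted p = 0.0846) and in DESeq2 (0.0506). LEF1-AS1 kept it in 1 of the 6 fits without 1 library, the one without SOX2 siRNA replicate 3, with adjusted p up to 0.124 in the others. It was lost for LEF1-AS1 in DESeq2 (0.164) and with no filter beyond 1 count (0.0628) as well.

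The question of the pairing is whether an antisense RNA and its partner changed alike. The 260 antisense RNAs have 257 distinct partners, since DLGAP1, PAXIP1 and PTOV1 each have 2 antisense RNAs here. Of the partners 254 were in the table, 233 were tested and 89 of these were called, 48 higher and 41 lower. That share of 38.2% stands beside 28.2% of all genes, but the partners were more abundant, at a median of 44.7 CPM. Among all genes tested with a mean from 30 CPM the share was 37.1%, close to that of the partners. Without SOX2 siRNA replicate 1 86 partners were called, and without replicate 3 77. Both genes were tested in 236 pairs. In 31 both were called, in 20 only the antisense RNA, in 60 only the partner, and in 125 neither. A call in 1 gene and not in the other does not show that their changes differed, so the ratio of the 2 levels was tested as well. The submitters' notes do not say whether counting used the strand of the reads, and in 184 pairs the exons of both genes overlap in GENCODE 29, by a median of 9.72% of the antisense RNA's exon length. Reads from these overlaps cannot be told apart here.

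Among the 31 pairs with both genes called, 23 moved in the same direction, 11 higher and 12 lower, and 8 in opposite directions. The sign of the fold change was shared by 140 of all 236 pairs (59.3%), and over these pairs the fold changes had a Pearson correlation of 0.27 and a Spearman correlation of 0.24, as a description of pairs measured in the same libraries. Without control replicate 2 there were 12 same-direction and 5 opposite pairs, and without control replicate 3 15 same-direction pairs. There were 22 and 9 without SOX2 siRNA replicate 1, and 16 and 9 without SOX2 siRNA replicate 3. DESeq2 gave 14 same-direction and 8 opposite pairs. Of the 72 pairs whose exons do not overlap, 4 moved in the same direction and 3 in opposite directions.

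**Figure D2:**
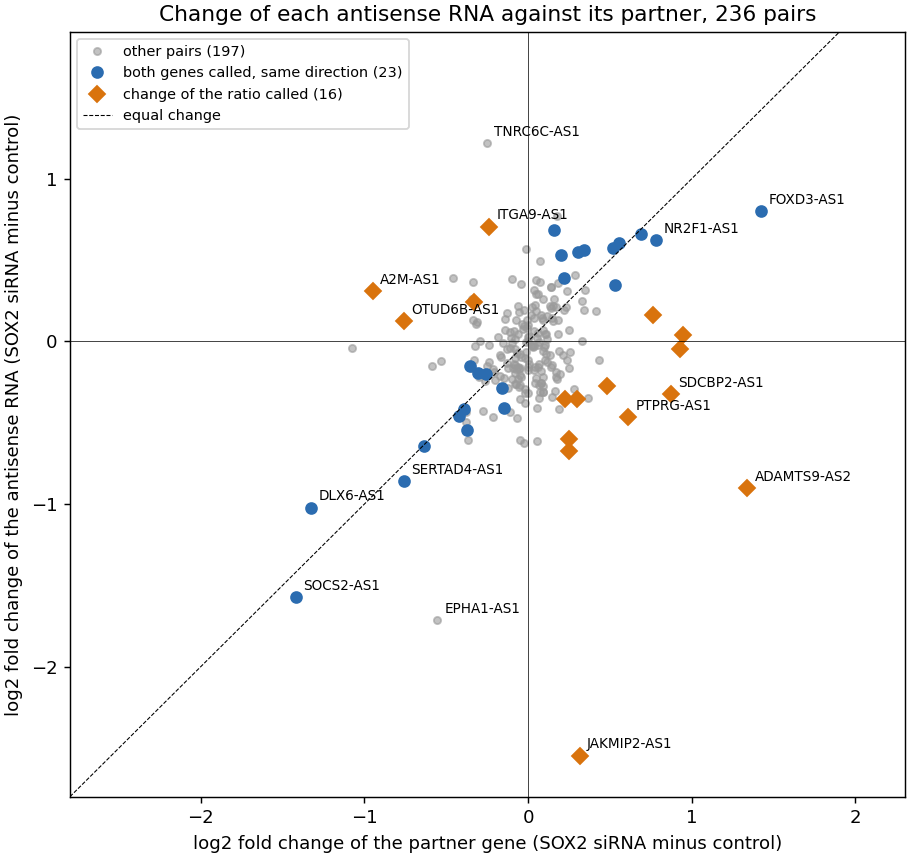
Log2 fold change of the partner gene (horizontal axis) and of its antisense RNA (vertical axis), SOX2 siRNA minus control, for the 236 pairs with both genes tested; blue points are the 23 pairs with both genes called in the same direction, orange diamonds the 16 pairs whose ratio was called, grey points the rest, and the dashed line marks equal change. The blue points run along the dashed line from SOCS2-AS1 at the lower left to FOXD3-AS1 at the upper right, and JAKMIP2-AS1 and ADAMTS9-AS2 lie far below it.

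The pairs that moved together are described by what the partner is known to do, an order chosen for reading and not tested as a theme. NR2F1, an orphan nuclear receptor of neural and mesodermal development, was at 87.0, 92.7 and 89.8 CPM in control and 149, 164 and 150.1 CPM after SOX2 siRNA, and rose by 0.78 (edgeR adjusted p = 5.19e-10) beside 0.62 for NR2F1-AS1. The ratio of NR2F1-AS1 to NR2F1 changed by -0.16 (95% interval -0.43 to 0.11, limma adjusted p = 0.441), so a difference between both changes was not detected. DLX6, a homeobox factor, was at 9.56, 9.70 and 8.93 CPM in control and 3.97, 3.57 and 3.68 CPM after SOX2 siRNA. It fell by 1.32 (adjusted p = 1.90e-08) beside 1.02 for DLX6-AS1, and the exons of both do not overlap. FOXD3, a forkhead factor of pluripotent and neural crest cells, was as scarce as its antisense RNA. Its CPM were 0.824, 0.398 and 0.966 in control and 1.87, 2.03 and 2.06 after SOX2 siRNA, a rise of 1.42 (adjusted p = 0.000405). LEF1, a transcription factor of the Wnt pathway, rose by 0.56 (adjusted p = 4.36e-08), and SOX9 rose by 0.53 (adjusted p = 3.60e-08) beside 0.35 for SOX9-AS1. ID2, a helix-loop-helix protein that blocks DNA binding of its relatives, was at 85.5, 82.1 and 89.3 CPM in control and 51.7, 54.8 and 58.3 CPM after SOX2 siRNA. Its fall of 0.64 (adjusted p = 4.87e-08) and that of 0.65 for ID2-AS1 were alike in size, with a change of the ratio of -0.01 (95% interval -0.44 to 0.42).

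SOCS2, a suppressor of cytokine signalling, was at 89.4, 90.4 and 92.0 CPM in control and 33.1, 33.4 and 34.8 CPM after SOX2 siRNA. It fell by 1.42 (edgeR adjusted p = 1.32e-13), beside 1.57 for SOCS2-AS1, and the ratio changed by -0.13 (95% interval -0.53 to 0.27). LIFR, the receptor chain for leukaemia inhibitory factor, was measured at 89.7, 93.2 and 96.9 CPM in control and 143, 149 and 158 CPM after SOX2 siRNA. With LIFR-AS1 at 3.33, 2.94 and 2.79 CPM and 5.24, 4.83 and 4.24 CPM, both genes of this pair were higher in every SOX2 siRNA library than in any control library. LIFR rose by 0.69 and LIFR-AS1 by 0.66. RAMP2, an accessory protein of the calcitonin-like receptor, rose by 0.31 beside 0.55 for RAMP2-AS1. Its own call (adjusted p = 0.0131) was lost without control replicate 2 (0.0610), without SOX2 siRNA replicate 3 (0.0685) and in DESeq2 (0.0628).

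LOXL1-AS1 was at 8.76, 8.31 and 9.21 CPM in control and 13.6, 12.9 and 12.5 CPM after SOX2 siRNA, and LOXL1, an enzyme of the lysyl oxidase family that cross-links elastin, at 12.2, 9.58 and 11.2 CPM and 16.9, 14.9 and 15.6 CPM. LOXL1-AS1 rose by 0.57 (edgeR adjusted p = 2.51e-05) and LOXL1 by 0.52 (adjusted p = 0.000161). H1-10, a linker histone, rose by 0.34 beside 0.56 for H1-10-AS1. VIM, the intermediate filament protein vimentin, fell by 0.39 and VIM-AS1 by 0.41, although the VIM-AS1 values of 7.24, 7.20 and 6.14 CPM in control and 6.37, 5.05 and 3.98 CPM after SOX2 siRNA overlapped. The call of VIM-AS1 (edgeR adjusted p = 0.0419) was lost without control replicate 1 (0.148), control replicate 2 (0.161), SOX2 siRNA replicate 2 (0.123) and SOX2 siRNA replicate 3 (0.141), in DESeq2 (0.0690) and in limma-voom (0.0512). VIM reached 2985 CPM, and 32.2% of the exon length of VIM-AS1 overlaps VIM, the read sharing named above. The remaining pairs of the same direction, chosen after their values were seen, included PDCD4, PPP3CB and FBXL19, which rose, and SERTAD4, RBM26, SLC16A1, THAP9, ZNF528, ZNF667 and ENTPD1, which fell, each with its antisense RNA. PDCD4 lost its own call without control replicate 2 (adjusted p = 0.0597), SOX2 siRNA replicate 1 (0.0650) and SOX2 siRNA replicate 2 (0.0930). Of these antisense RNAs PPP3CB-AS1, SERTAD4-AS1 and RBM26-AS1 kept their call in all 6 fits without 1 library. Without control replicate 2 the call was lost for ENTPD1-AS1 (0.128), FBXL19-AS1 (0.0623), SLC16A1-AS1 (0.0821), THAP9-AS1 (0.104) and ZNF667-AS1 (0.0597), and without control replicate 3 for ENTPD1-AS1 (0.152), THAP9-AS1 (0.0876), ZNF528-AS1 (0.0556) and ZNF667-AS1 (0.0862). Without SOX2 siRNA replicate 3 it was lost for ENTPD1-AS1 (0.0541), SLC16A1-AS1 (0.0605), THAP9-AS1 (0.0782) and ZNF667-AS1 (0.0875). ENTPD1-AS1 also lost it without SOX2 siRNA replicate 1 (0.0819) and replicate 2 (0.0618), and FBXL19-AS1 without replicate 2 (0.113). In DESeq2 the call was lost for ENTPD1-AS1 (0.0790), FBXL19-AS1 (0.0705) and ZNF667-AS1 (0.0719), and in limma-voom for ENTPD1-AS1 (0.0546). In none of the 23 pairs was a change of the ratio called.

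The ratio of antisense RNA to partner was called in 16 of the 236 pairs, or 6.78%, where 6.52% of all 353 pairs with both genes tested were called whatever their level. This test used limma on the log2 ratio in each library. The ratio fell in 12 and rose in 4, and in all 16 the libraries of both groups did not overlap, which held for 30.9% of all 353. The call was made on the same ratios, so this is no separate support. In 6 of the 16 both genes were called in opposite directions, in 9 the partner alone was called, and in 1 neither gene was. Since an exact permutation test of 3 against 3 libraries cannot give a p under 0.1, single pairs rest on the spread pooled over all pairs. Without any 1 library the count was 5 to 9, namely 8, 5 and 9 without control replicates 1, 2 and 3 and 8, 6 and 8 without SOX2 siRNA replicates 1, 2 and 3. JAKMIP2-AS1, PTPRG-AS1, DLGAP1-AS2, OTUD6B-AS1 and A2M-AS1 kept their call in all 6. The other 11 lost it at least once, with the highest adjusted p of each between 0.0532 for DLGAP1-AS1 and 0.133 for TSC22D1-AS1. With no filter on low counts beyond 1 count, over 859 pairs, 1 of the 16 was called, JAKMIP2-AS1, and with at least 10 counts in every library, over 300 pairs, 26 pairs were.

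JAKMIP2-AS1 and its partner parted most. JAKMIP2, a protein that binds Janus kinases and microtubules, was at 30.4, 32.2 and 29.2 CPM in control and 36.8, 36.5 and 40.6 CPM after SOX2 siRNA. All SOX2 siRNA values were above all control values, for a rise of 0.32 (edgeR adjusted p = 0.000486) while JAKMIP2-AS1 fell by 2.55. The ratio changed by -2.82 (95% interval -3.06 to -2.58, limma adjusted p = 1.16e-05). The antisense RNA starts 222854 bases from the start of JAKMIP2 and 24.9% of its exon length overlaps JAKMIP2 exons. PTPRG encodes a receptor-type tyrosine phosphatase. PTPRG-AS1 (chr3:62260865-62369330, minus strand) was at 13.3, 15.1 and 13.3 CPM in control and 9.61, 10.8 and 9.58 CPM after SOX2 siRNA, and PTPRG at 329, 345 and 347 CPM and 515, 509.8 and 529 CPM. Neither gene's groups overlapped. PTPRG-AS1 fell by 0.47 (edgeR adjusted p = 0.000343), PTPRG rose by 0.61 (adjusted p = 7.50e-10), and the ratio changed by -1.08 (95% interval -1.36 to -0.79, limma adjusted p = 0.00681).

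DLGAP1, a scaffold protein of the postsynaptic density, has both its antisense RNAs in the set. DLGAP1-AS2 (chr18:3603000-3608336, plus strand) was at 40.4, 40.0 and 42.3 CPM in control and 28.2, 25.7 and 26.7 CPM after SOX2 siRNA, and DLGAP1-AS1 (chr18:3593732-3598352, plus strand) at 4.03, 5.01 and 4.59 CPM and 3.00, 2.89 and 2.59 CPM. Both lay lower in all SOX2 siRNA libraries, and fell by 0.60 and 0.68 (edgeR adjusted p = 1.00e-07 and 0.00148). DLGAP1 was at 15.9, 16.1 and 16.6 CPM in control and 19.1, 19.7 and 18.8 CPM after SOX2 siRNA, a rise of 0.25 (adjusted p = 0.00584). On the scale of CPM per kilobase of exon DLGAP1-AS2 stood at 12.9 in control, above DLGAP1 at 1.34. The ratio of DLGAP1-AS2 to DLGAP1 changed by -0.85 (95% interval -1.10 to -0.59, limma adjusted p = 0.00844) and that of DLGAP1-AS1 by -0.91 (-1.21 to -0.61, 0.0118), 2 values that share the same partner. Both antisense genes lie within the span of DLGAP1 without sharing exon bases with it. ADAMTS9, a secreted metalloprotease that cleaves proteoglycans, was at 93.3, 91.3 and 93.4 CPM in control and 221, 225 and 255 CPM after SOX2 siRNA. ADAMTS9-AS2 (chr3:64684909-65053439, plus strand) was at 2.17, 2.58 and 2.45 CPM and 1.87, 1.14 and 0.829 CPM. ADAMTS9 rose by 1.34 (edgeR adjusted p = 4.89e-10) as its antisense RNA fell, without overlap in either gene. The ratio changed by -2.28 (95% interval -3.04 to -1.52, limma adjusted p = 0.0119), with adjusted p of 0.0553 without control replicate 2 and 0.0532 without SOX2 siRNA replicate 2.

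In 9 called pairs the partner moved and the antisense RNA was not called. A2M, the protease inhibitor alpha-2-macroglobulin, was at 333, 316 and 325 CPM in control and 168, 167 and 169 CPM after SOX2 siRNA. A2M-AS1 (chr12:9065177-9068684, plus strand) was at 2.78, 3.26 and 2.79 CPM and 4.04, 3.26 and 3.58 CPM. The A2M values lay close together within each group. A2M fell, with a fold change of -0.95 (edgeR adjusted p = 9.54e-13), and A2M-AS1 had a fold change of 0.31 (adjusted p = 0.134). The ratio of A2M-AS1, whose groups barely missed overlap, to A2M rose by 1.24 (95% interval 0.91 to 1.58, limma adjusted p = 0.00681). OTUD6B encodes a deubiquitinase, and OTUD6B-AS1 starts 7 bases from it on the other strand, with no shared exon base. OTUD6B was at 28.1, 31.6 and 30.9 CPM in control and 16.3, 18.2 and 18.9 CPM after SOX2 siRNA, and OTUD6B-AS1 at 22.8, 23.6 and 25.1 CPM and 25.1, 25.6 and 27.0 CPM. The groups of OTUD6B were apart and those of OTUD6B-AS1 overlapped. OTUD6B fell by 0.76 (edgeR adjusted p = 3.23e-07), OTUD6B-AS1 had 0.12 (adjusted p = 0.144), and the ratio rose by 0.88 (95% interval 0.62 to 1.14, limma adjusted p = 0.00844).

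The other called ratios kept their call in at most 2 of the 6 fits without 1 library. Partners that rose while the ratio fell were SDCBP2, which encodes syntenin-2 (ratio -1.09), ARRDC3, an arrestin-domain protein (-0.97), MELTF, melanotransferrin (-0.93), and, listed after their values were seen, FRMD6 (-0.75), MMP25 (-0.60) and TSC22D1 (-0.56). SDCBP2 itself was near 10 counts in control, at 0.427, 0.398 and 0.448 CPM in control and 0.868, 0.585 and 0.895 CPM after SOX2 siRNA, and its call (edgeR adjusted p = 0.0381) was lost in DESeq2 (0.204), in limma-voom (0.0529) and without any 1 library except SOX2 siRNA replicate 2. SLC25A21, a mitochondrial carrier, fell by 0.33 with a ratio change of 0.57. Its own call was lost in DESeq2 (0.0904) and without control replicate 1 (0.0633), control replicate 2 (0.114), SOX2 siRNA replicate 1 (0.0574) and SOX2 siRNA replicate 3 (0.0885). ITGA9-AS1 and ITGA9, an integrin subunit, went opposite ways. ITGA9-AS1 rose from 3.88 ± 0.204 to 6.30 ± 0.911 CPM (SD, n = 3 each) and ITGA9 fell by 0.24, for a ratio change of 0.93 (limma adjusted p = 0.0228). The call of ITGA9 (edgeR adjusted p = 0.00998) was lost without control replicate 2 (0.0670). In SLC2A1-AS1 and SLC2A1, a glucose transporter, neither gene was called and the ratio changed by -0.67 (0.0363). TNRC6C and TPT1, the remaining opposite pairs, had no called ratio in the test over 353 pairs. TNRC6C, of the GW182 family that silences microRNA targets, fell by 0.25, with a ratio change of 1.48 (limma adjusted p = 0.0525). That ratio passed with at least 10 counts in every library (0.0360). It also passed as the difference of the edgeR fold changes (0.000166), under the assumptions named for EPHA1-AS1. TPT1, a highly abundant translationally controlled protein, rose by 0.16 and TPT1-AS1 fell by 0.31, with a ratio change of -0.48 (0.136). TPT1-AS1 lost its call without control replicate 1 (0.144), 2 (0.144) and 3 (0.125) and without SOX2 siRNA replicate 2 (0.108).

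**Figure D3:**
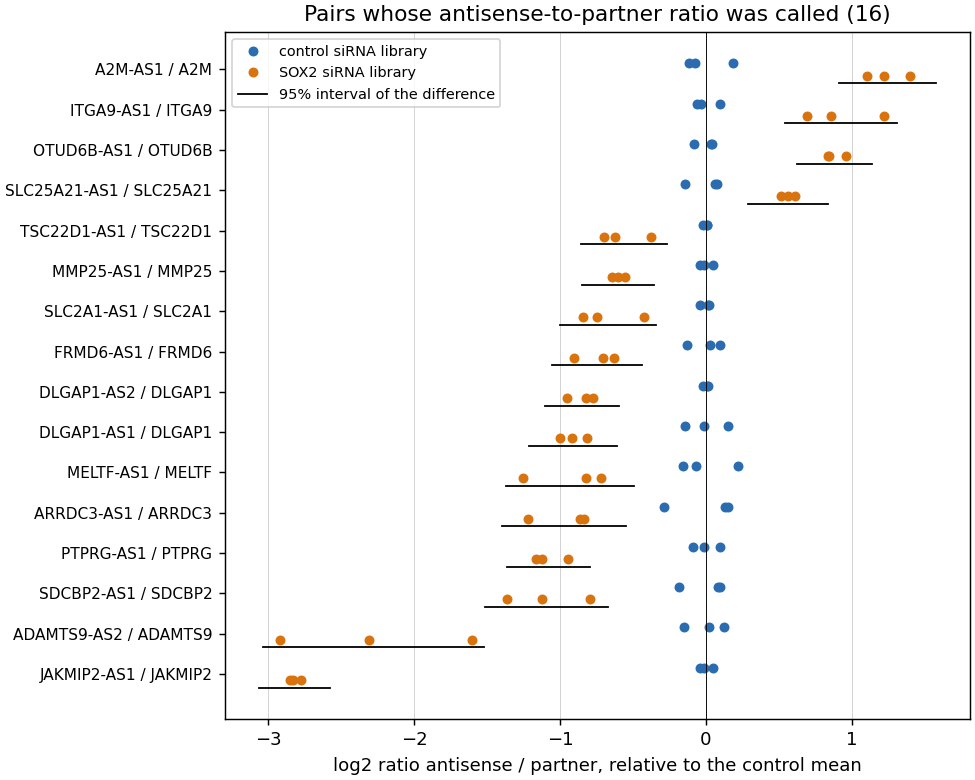
Log2 ratio of antisense RNA to partner in each library, relative to the control mean (horizontal axis), for the 16 pairs with a called ratio, 1 row each; blue points are control siRNA libraries, orange points SOX2 siRNA libraries, and lines the 95% interval of the difference from limma. The colours are apart in every row, 4 pairs lie to the right of 0 and 12 to the left, with JAKMIP2-AS1 at -2.82.

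Position was not used to choose the genes. In GENCODE 29, 259 of the 260 were matched, 240 by symbol and 19 by gene ID, and both genes of 256 pairs could be placed. Exons of both genes overlap in 184 pairs, the spans overlap without shared exon bases in 41, 29 are divergent, with starts within 1000 bases and genes that point apart, and 2 lie apart. Antisense RNAs were called in 41 of the 184 (22.3%), in 9 of the 41 (22.0%) and in 4 of the 29 (13.8%), beside 28.2% of all genes. Pairs with both genes called were 24 (19 same direction, 5 opposite), 6 (3 and 3) and 1 (same direction) in these classes. The ratio was called in 11, 4 and 1 of them.

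Sorted by the distance between both gene starts, most pairs called in the same direction lay nearer than most called in opposite directions. This is a description and was not tested. It rests on 8 opposite pairs, with DLGAP1 counted for both its antisense RNAs. Of these 8, 6 had a called ratio, and TNRC6C and TPT1 did not. Within 1000 bases there were 104 pairs, and 10 had both genes called, 9 in the same direction and 1, TPT1-AS1, opposite. Between 1000 and 10000 bases, a bound chosen after the values were seen, there were 42 pairs, of which 11 had both called, 10 in the same direction and 1, ADAMTS9-AS2, opposite. Beyond 10000 bases were 110 pairs, and here 4 moved in the same direction (LIFR, SOX9 and ENTPD1 among them) and 6 opposite (JAKMIP2, PTPRG, ITGA9, TNRC6C and DLGAP1 with both its antisense RNAs). Pearson correlations of both fold changes were 0.23, 0.59 and -0.05 in these 3 ranges, over pairs from the same libraries. The ratio was called in 3 of the 103, 4 of the 37 and 9 of the 95 pairs tested in them. Called ratios were thus no rarer between 1000 and 10000 bases, where 10 pairs moved together and 1 opposite, than beyond. Pairs with a called ratio thus also lay near, OTUD6B-AS1 among those within 1000 bases. LIFR-AS1 is counted among the distant pairs because the GENCODE span of LIFR begins 51568 bases away, while a RefSeq start of LIFR lies 139 bases from the antisense start, in the sequence printed above. In the 48 RefSeq shared start regions, 8 antisense RNAs and 21 partners were called, beside 28.2% of all genes. Over the whole set 21.5% of the antisense RNAs and 38.2% of the partners tested were called. In these regions 32 of the 47 pairs tested had the same sign, beside 59.3% of all pairs. Of the 6 with both called, 5 moved together: FOXD3 and LIFR rose and ID2, RBM26 and ZNF528 fell, each with its antisense RNA. In the other regions with a called partner the antisense RNA was not called. Of these, ARRDC3 rose by 0.925 beside -0.0458 for ARRDC3-AS1, and their ratio was called.

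**Figure D4:**
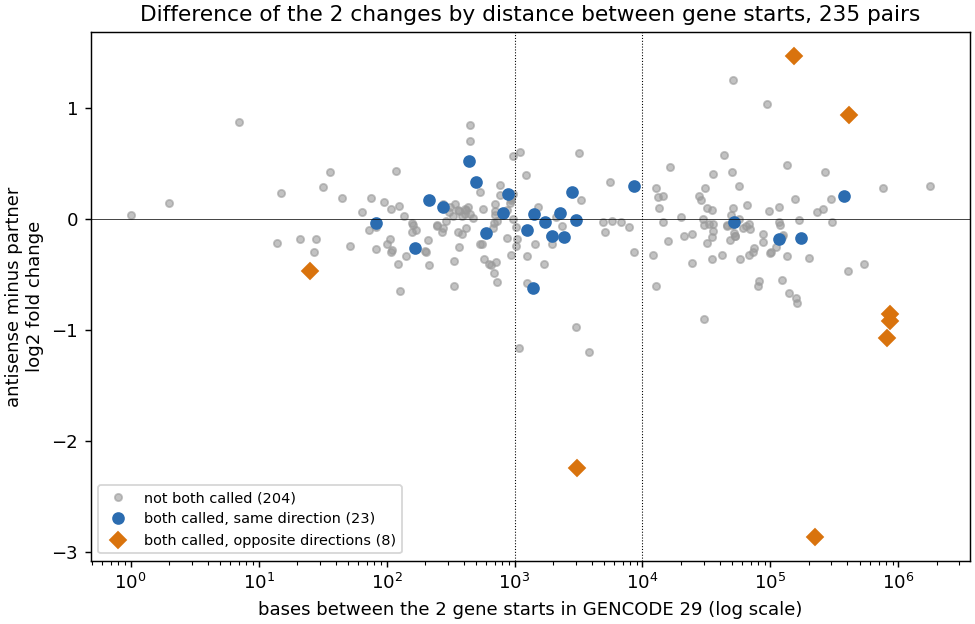
Difference of the log2 fold changes, antisense RNA minus partner (vertical axis), by the bases between both gene starts in GENCODE 29 (horizontal log axis) for 235 pairs with both genes tested and placed; blue points are the 23 pairs with both genes called in the same direction, orange diamonds the 8 called in opposite directions, grey points the rest, and dotted lines mark 1000 and 10000 bases. Of the orange diamonds 6 lie beyond 10000 bases, and 19 of the blue points lie within it.

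For some antisense RNAs no partner could be compared. For 21 the partner was in the table but too low to be tested, and 3 of these antisense RNAs were called. They were FGD5-AS1, described above, CPB2-AS1, which rose by 0.51 (edgeR adjusted p = 0.0156), and ASB16-AS1, which fell by 0.24 (adjusted p = 0.0439). CPB2, a plasma carboxypeptidase made by liver, and ASB16 were under 0.2 CPM in every library. CPB2-AS1 lost its call without control replicate 1 (0.0768), without SOX2 siRNA replicate 2 (0.0909) and in DESeq2 (0.0631). ASB16-AS1 kept it only without SOX2 siRNA replicate 1 among the 6 such fits, with adjusted p of 0.134, 0.0604 and 0.119 without control replicates 1, 2 and 3 and of 0.166 and 0.131 without SOX2 siRNA replicates 2 and 3, and lost it in DESeq2 (0.147) and limma-voom (0.0516). The symbol before -AS was not in the table for HOXA-AS2, RPARP-AS1 and TRG-AS1. RPARP-AS1 rose by 0.41 (adjusted p = 0.0333) and TRG-AS1 was not called. RPARP-AS1 lost its call without control replicates 2 (0.136) and 3 (0.0833), without SOX2 siRNA replicates 1 (0.138) and 2 (0.0686) and in DESeq2 (0.111).

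Other non-coding genes, set beside the antisense RNAs by symbol at the same level of at least 1 CPM, give a scale for these counts. Of 135 LINC genes, the intergenic long non-coding RNAs, 36 (26.7%) were called, 10 higher and 26 lower, with a median fold change of -0.14. Of 50 genes with the ending -DT, for divergent transcript, 6 (12.0%) were called, 4 higher and 2 lower, with a median of -0.016. Of 7 with the ending -IT, for intronic transcript, 1 was called, higher. The antisense RNAs, with 21.5% called and a median of -0.054, lay between the LINC and -DT genes in both measures, and the differences between these lists were not tested.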

How the data were processed

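RNA of 6 libraries was sequenced after poly(A) selection. The authors deposited whole-number counts per gene symbol for all libraries in 1 table. The submitters' processing notes name bcl2fastq 2.20.0, STAR 2.7.3a, Salmon 0.14.1, DESeq2 1.28.1 and GRCh38.p13. Which tool made the counts, the gene annotation and the use of read strand are not given in the sources used here. Reads shared by overlapping genes on opposite strands may therefore be split or counted wrongly.

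Genes were tested with edgeR 4.0.16 (R 4.3.3; filterByExpr with a minimum count of 10, TMM scaling, quasi-likelihood test, Benjamini-Hochberg adjustment over 17592 genes). The common dispersion of 0.00218 corresponds to a biological coefficient of variation of 4.67%. This is 1 value over all genes for the spread between libraries beyond counting error. The median SE of the fold change was 0.146 for the antisense RNAs and 0.0735 over all genes tested. Each pair's log2 ratio (log2 CPM with a prior count of 2) was tested with limma 3.58.1 over all 353 antisense pairs with both genes tested. The steps were run on simulated counts with planted changes of 1.5-fold or more, and the numbers recovered are not given here. Simulated libraries of a group shared the same expected level of each gene, without the order of SOX2 siRNA replicates described above. Smaller changes, such as most of those called among the antisense RNAs, were not planted. Replicates of a group differed by more than counting error (chi-square per degree of freedom 2.85 to 6.32), so all were kept.

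The antisense RNAs, the lists and the markers were chosen with earlier results of these data known. Named are the 6 most abundant antisense RNAs, the 10 highest and 10 lowest called fold changes, up to 6 called ratios in each direction, 4 pairs called in the same and 4 in opposite directions, 2 genes on each side of the level, and their partners. Others, and the CCAAT search, were chosen after seeing the values. Exon positions come from GENCODE 29, start sequences from RefSeq. Alternatives were other scalings, filters, levels and tests (DESeq2 1.42.0, limma-voom), a replicate block, leaving out each library, and pairs without exon overlap. 1 pair counted in the totals is not reported here by name.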

Additional observations from a re-analysis of the deposited data

How the results depend on the processing

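Of 1313 values of single genes and ratios under the alternatives, 1162 kept their direction and side of the threshold, 122 lost their call, 17 gained one and 12 turned direction, all of the last uncalled. When 1 library was left out, the fold change ranged from -0.10 to 0.00658 for ARRDC3-AS1, from -0.10 to 0.18 for MELTF-AS1 and from -0.0574 to 0.00903 for TMEM161B. The ratio change ranged from -0.12 to 0.18 for GABPB1-AS1, -0.16 to 0.17 for ID2-AS1, -0.00402 to 0.0734 for LEF1-AS1, -0.141 to 0.0840 for LIFR-AS1, -0.0368 to 0.0992 for LOXL1-AS1 and -0.159 to 0.0530 for SERTAD4-AS1. Leaving out 1 library gave 34 to 57 antisense RNAs called, 13 to 23 higher and 21 to 42 lower, 66 to 86 partners called, 12 to 22 same-direction pairs, 5 to 9 opposite pairs and 5 to 9 called ratios. DESeq2's Wald test called 35 antisense RNAs, 13 higher and 22 lower, and gave 14 same-direction pairs. The called ratios numbered 1 with no filter beyond 1 count (859 pairs tested), 26 with at least 10 counts in every library (300 pairs) and 42 from the difference of the edgeR fold changes divided by their standard errors. The last used a normal distribution and took both genes of a pair as independent, and the part of this in its count was not tested. Pairs without exon overlap, 72 in all, held 13 called antisense RNAs, 22 called partners, 4 same-direction and 3 opposite pairs and 5 called ratios, a smaller set by construction. With a level of at least 2 CPM (181 antisense RNAs) 50 were called and 66 partners, and with at least 0.5 CPM (336) 63 and 113. The 3 scalings gave 56 antisense RNAs called each, and a median fold change of -0.0540, -0.0561 and -0.0740.

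The replicate numbers are not said to mark a shared day or culture. Deviations of same-numbered libraries correlated at 0.0868, -0.0377 and -0.0311, and not every library correlated best with its own number. With the number as a replicate block 60 antisense RNAs were called, 55 of them among the 56, and 11 ratios, 9 of them among the 16. Under the block the ratio of TNRC6C-AS1 passed (adjusted p = 0.0397), as did that of EPHA1-AS1 (0.0391). Between 1 and 2 CPM 7.59% of the antisense RNAs and 14.7% of all genes were called, and the part of depth in this was not tested.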
